A study of Mus musculus with 6 samples.

Results

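Negative feedback genes of the MAP kinase, mRNA decay and NF-kB pathways were compared between pro-B cells labelled HDAC7 deficient and wild-type pro-B cells of the mouse. The group was chosen by name and holds 10 genes, namely the phosphatase genes Dusp1, Dusp2, Dusp5 and Dusp6, the mRNA decay genes Zfp36, Zfp36l1 and Zfp36l2, and the NF-kB regulators Tnfaip3, Nfkbia and Nfkbiz. Of these, 8 were measured by 12 probe sets annotated with a single symbol, among 17097 genes and 45037 probe sets in all. Dusp5 and Zfp36 were not analysed here as expression values. Each gene is represented by its probe set of highest mean over the 6 arrays, and the others are given beside it.

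The 3 HDAC7-deficient arrays carry RNA of pro-B cells from HDAC7 conditional mice, and the 3 wild-type arrays RNA of pro-B cells from wild-type mice. Pro-B cells, an early stage of B cell development in bone marrow, were sorted here as B220+CD43+IgM- cells, and HDAC7 is a deacetylase of class IIa. The sources used here do not give the Cre driver, the deleted exons, the age of the mice or whether animals were pooled, and the labels state no treatment. RNA was amplified as a whole transcriptome and hybridised to Affymetrix perfect-match arrays, and the deposited values are log2 expression values per probe set. They can be compared between arrays for 1 probe set, but not between probe sets. Hdac7 itself was 9.95, 9.54 and 9.27 on the HDAC7-deficient arrays and 9.06, 9.48 and 7.31 on the wild-type arrays, so its signal does not check the labels, and each direction below is that of the labelled groups.

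These genes share a design in which a pathway switches on its own brake. MAP kinases such as ERK, p38 and JNK induce dual-specificity phosphatases, which remove the activating phosphates from the same kinases. ZFP36 family proteins bind AU-rich elements in the tails of short-lived mRNAs, many of them made in response to MAP kinase and NF-kB signals, and recruit the deadenylases that start their decay. NF-kB dimers induce IkB alpha and A20, which hold NF-kB in the cytoplasm or edit the ubiquitin chains that activate it, and IkB zeta, a nuclear relative that alters which genes NF-kB drives. In B cell precursors, Zfp36l1 and Zfp36l2 are known to limit cycling during antigen receptor rearrangement.

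The promoter stretches of the measured genes that hold a letter match to a signal-responsive motif are shown here. They differ in which of the NF-kB, CRE and AP-1 letters they hold, and Tnfaip3 holds both NF-kB and AP-1 letters. Each line gives the 250 bases before the annotated start from RefSeq (build GRCm38.p6), 5′ to 3′ on the strand of the gene, with matches in capitals.
Nfkbia, chr12:55492648-55492897, minus strand: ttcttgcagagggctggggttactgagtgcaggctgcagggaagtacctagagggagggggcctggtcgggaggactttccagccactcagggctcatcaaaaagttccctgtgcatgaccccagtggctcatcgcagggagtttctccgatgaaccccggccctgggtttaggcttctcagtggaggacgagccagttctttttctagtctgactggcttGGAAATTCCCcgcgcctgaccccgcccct
Tnfaip3, chr10:19015411-19015660, minus strand: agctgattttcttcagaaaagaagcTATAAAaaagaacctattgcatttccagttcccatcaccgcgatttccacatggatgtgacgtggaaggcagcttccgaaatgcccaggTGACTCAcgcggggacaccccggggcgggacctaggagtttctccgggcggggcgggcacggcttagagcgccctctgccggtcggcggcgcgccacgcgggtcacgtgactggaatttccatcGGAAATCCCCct
Dusp1, chr17:26508473-26508722, minus strand: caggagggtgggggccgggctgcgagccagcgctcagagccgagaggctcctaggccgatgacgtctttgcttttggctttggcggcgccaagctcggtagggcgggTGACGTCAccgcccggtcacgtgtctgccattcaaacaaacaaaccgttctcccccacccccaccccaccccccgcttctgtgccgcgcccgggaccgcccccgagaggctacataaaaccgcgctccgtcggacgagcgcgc
Zfp36l1, chr12:80113014-80113263, minus strand: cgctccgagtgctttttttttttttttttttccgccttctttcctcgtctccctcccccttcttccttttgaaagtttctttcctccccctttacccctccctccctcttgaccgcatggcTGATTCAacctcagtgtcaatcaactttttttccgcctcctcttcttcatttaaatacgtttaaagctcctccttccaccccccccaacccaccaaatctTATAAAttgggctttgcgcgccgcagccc
Matches were sought on both strands for an NF-kB motif (GGGNNTTTCC), an AP-1 motif (TGANTCA), a full CRE (TGACGTCA), a TATA box (TATAAA), the CArG box and the MEF2 motif. In capitals Nfkbia has the NF-kB motif, read on the opposite strand, 29 to 20 bases before the start. In Tnfaip3 they mark a TATA match, an AP-1 match and, 12 to 3 bases before the start, the NF-kB motif on the opposite strand. Dusp1 has the full CRE 143 to 136 bases before the start, and Zfp36l1 an AP-1 match and a TATA box. The NF-kB motif was in 1.41% of 32851 RefSeq promoter windows of this length, the CRE in 1.55%, the AP-1 motif in 6.75%, the TATA box in 12.4%, the CArG box in 1.47% and the MEF2 motif in 0.508%. The windows of Dusp2 and Dusp6 and the other window of Tnfaip3 held none of these letters, and the 8 of the 10 genes with a window held no MEF2 match. A match of letters describes the sequence and says nothing of binding in these cells.

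One array, wild-type replicate 3, differed from the rest, and results are given with and without it. Its median correlation with the other arrays was 0.746, against 0.943 to 0.974 for those arrays, and its 3′ Actb probes exceeded the middle ones by 1.69, against 0.161 to 0.263 elsewhere. The hybridisation spike-in controls and Xist divided the arrays across genotypes in the same way, so they cannot be told apart. Xist was 11.4 and 11.3 on HDAC7-deficient replicates 2 and 3 and 8.51 on wild-type replicate 3. It was 4.87 on HDAC7-deficient replicate 1 and 5.38 and 5.17 on wild-type replicates 1 and 2. Whether this division reflects the sex of the mice was not tested. HDAC7-deficient replicates 2 and 3 and wild-type replicate 3 had high spike-ins (means of 9.99 to 10.8), and HDAC7-deficient replicate 1 and wild-type replicates 1 and 2 had low ones (8.64 to 9.17). The 11 measured genes of pro-B cells had mean levels of 9.35 to 10.3 on the HDAC7-deficient arrays and 9.79 and 10.05 on wild-type replicates 1 and 2, but 8.43 on wild-type replicate 3. There Dntt, which adds bases at antigen receptor joints, read 7.37, against 9.84 to 10.64 on the HDAC7-deficient arrays and 10.48 and 10.63 on the other wild-type arrays. The mature B cell gene Ms4a1 reached 11.35 on wild-type replicate 3, against 5.15 to 7.40 on the HDAC7-deficient arrays and 4.57 and 5.35 on the other wild-type arrays. The 5 measured mature B markers had a mean level of 8.15 there. It was 5.89 to 6.66 on the HDAC7-deficient arrays and 5.77 and 5.95 on the other wild-type arrays. Not every marker differed so. The pro-B gene Ebf1 read 10.48 there, against 10.34 and 10.42 on the other wild-type arrays. The mature B gene Cd22 read 8.60 there, against 7.98 and 8.65. No gene passed an adjusted p of 0.05 in limma (0.0% of 17097). Unadjusted p-values under 0.05 were reached by 602 higher genes (3.52%) and 1563 lower genes (9.14%).

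All 8 measured feedback genes had higher mean values in HDAC7-deficient than in wild-type pro-B cells. Their log2 changes were 0.37 to 1.79 with a median of 1.41. The median over all genes was -0.03, and 48.0% of genes were higher. All 8 are among the 8549 genes left without the dimmest 50%, where the median was 0.42 and 77.8% were higher. None of the 8 passed the adjusted threshold, with limma adjusted p-values of 0.377 to 0.63, so no gene below is called changed. At an unadjusted p under 0.05 there were 4 of the 8, namely Dusp2, Dusp6, Tnfaip3 and Nfkbia, all higher. The groups did not overlap for 5 of the 8, all higher, against 9.45% of all genes higher without overlap. Without wild-type replicate 3 these counts were 7 (5.19% of all genes) and 8 (11.8%), the median was 1.11 and the lowest adjusted p was 0.122. With arrays weighted by their spread (limma's gene-by-gene array weights, an alternative chosen after seeing the data), 7 of the 8 passed the adjusted threshold, all but Zfp36l2, as did 37.6% of all genes. Those weights were 4.64 for HDAC7-deficient replicate 2 and 4.63 for wild-type replicate 1, against 0.0671 to 1.33 for the other arrays, so that setting rests mostly on a single pair of arrays. With 3 arrays a group, the smallest p of an exact permutation test is 0.1. In bulk RNA, a different share of cells that express a gene and a different level per cell cannot be told apart.

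**Figure D1:**
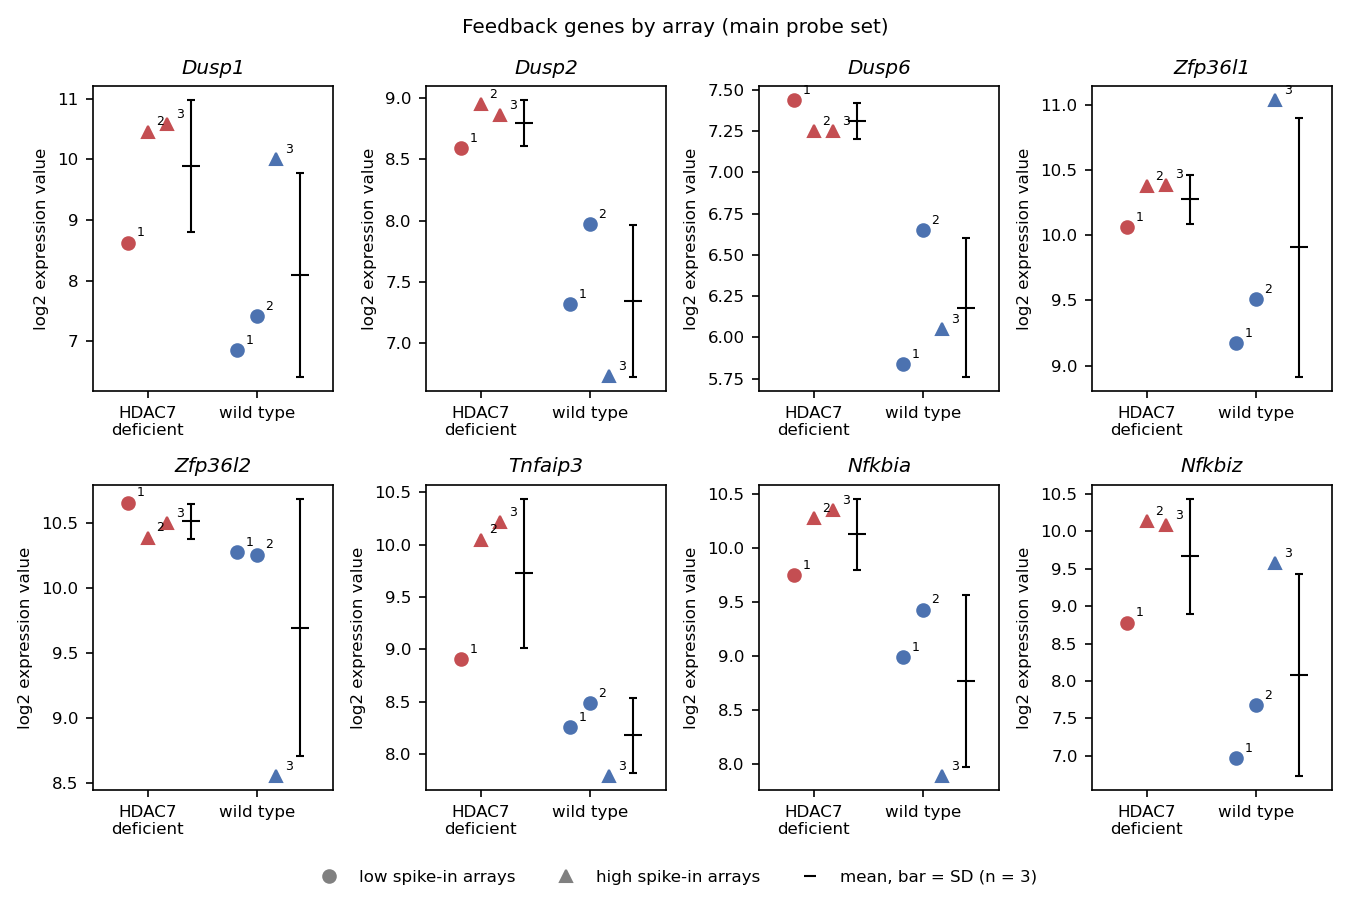
Log2 expression value (y axis) of each measured feedback gene on the 3 HDAC7-deficient and 3 wild-type arrays, with replicate numbers, circles for arrays with low spike-ins, triangles for those with high spike-ins, and bars for the mean ± SD. Wild-type replicate 3 reads far above the other wild-type arrays for Dusp1, Zfp36l1 and Nfkbiz, and below them for Dusp2, Zfp36l2, Tnfaip3 and Nfkbia.

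Among the MAP kinase phosphatases, Dusp2 and Dusp6 kept the groups apart. Dusp2, also called PAC-1, is a nuclear phosphatase induced in activated lymphocytes. It was 8.59, 8.95 and 8.86 on the HDAC7-deficient arrays and 7.32, 7.97 and 6.73 on the wild-type arrays. The lowest HDAC7-deficient array lay above the highest wild-type array. The means were 8.80 ± 0.19 and 7.34 ± 0.62 (SD, n = 3 each), a log2 change of 1.46 ± 0.38 (SE) or 2.76-fold, with a limma adjusted p of 0.377. Dusp6 encodes a cytoplasmic phosphatase with a preference for ERK, and its mRNA is widely used as a readout of ERK activity. It was 7.44, 7.25 and 7.25 on the HDAC7-deficient arrays and 5.84, 6.65 and 6.05 on the wild-type arrays. These HDAC7-deficient values are the least spread of the 8 genes (SD 0.11), and wild-type replicate 3 lies between the other wild-type arrays. The change of 1.14 ± 0.27 (limma adjusted p = 0.377) was 1.07 ± 0.28 without wild-type replicate 3, and it was 1.20 within the low spike-in arrays and again 1.20 within the high ones.

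Dusp1, the early stress-induced phosphatase of p38 and JNK whose CRE is shown above, was highest on the 3 arrays of high spike-ins, which include wild-type replicate 3. It was 8.63, 10.46 and 10.58 on the HDAC7-deficient arrays and 6.85, 7.42 and 10.01 on the wild-type arrays. Wild-type replicate 3 overlapped the HDAC7-deficient range and lay 2.88 above the mean of the other wild-type arrays. Over all arrays the change was 1.79 ± 0.92 (limma adjusted p = 0.380). Without that array it was 2.75 ± 0.54, or 6.74-fold, with an adjusted p of 0.150. With the division as a block it was 1.0 ± 0.35 (adjusted p = 0.101), from 1.49 within the low and 0.51 within the high spike-in arrays. HDAC7-deficient replicates 2 and 3 lay above replicate 1 by more than the whole gap between replicate 1 and wild-type replicate 2.

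By the brightest probe set of each gene, the mRNA decay genes gave the smallest differences of the 8 over all 6 arrays. Without wild-type replicate 3 this order did not hold, with Zfp36l1 (0.94) above Nfkbia (0.92). Zfp36l2 was 10.66, 10.39 and 10.50 on the HDAC7-deficient arrays and 10.28, 10.26 and 8.55 on the wild-type arrays. The groups did not overlap, and wild-type replicate 3 was the lowest array by far. The change of 0.82 ± 0.51 (limma adjusted p = 0.402) was 0.25 ± 0.12 without that array, or 1.19-fold. Zfp36l1 was measured by a pair of probe sets that disagreed on wild-type replicate 3. Its brighter probe set (1450644_PM_at) read 10.06, 10.38 and 10.39 on the HDAC7-deficient arrays and 9.17, 9.51 and 11.04 on the wild-type arrays, so that wild-type replicate 3 was the highest of all. This gave a change of 0.37 ± 0.52 (limma adjusted p = 0.630), or 0.94 ± 0.17 without that array (adjusted p = 0.122). Its other probe set (1422528_PM_a_at) read 8.39, 9.01 and 8.71 on the HDAC7-deficient arrays and 7.23, 8.0 and 7.33 on the wild-type arrays. There the groups did not overlap, and the change was 1.18 ± 0.33 (adjusted p = 0.322 over probe sets), or 1.09 ± 0.30 without wild-type replicate 3.

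The NF-kB inhibitors Tnfaip3 and Nfkbia, whose promoters hold the NF-kB letters, were higher on every HDAC7-deficient array than on any wild-type array. Tnfaip3 encodes A20, a ubiquitin-editing enzyme that shuts down signalling to NF-kB. It was 8.91, 10.05 and 10.22 on the HDAC7-deficient arrays and 8.26, 8.49 and 7.79 on the wild-type arrays. HDAC7-deficient replicate 1 sat near the wild-type range, and replicates 2 and 3 sat well above it. The change was 1.54 ± 0.44, or 2.91-fold, with a limma adjusted p of 0.377. The dimmer Tnfaip3 probe set (1450829_PM_at) read 6.09, 7.42 and 7.06 on the HDAC7-deficient arrays and 5.67, 6.02 and 5.70 on the wild-type arrays, again without overlap, with a change of 1.06 ± 0.36 (adjusted p = 0.350 over probe sets). Nfkbia encodes IkB alpha, which masks the nuclear import signal of NF-kB until it is degraded. It was 9.75, 10.28 and 10.35 on the HDAC7-deficient arrays and 8.99, 9.43 and 7.89 on the wild-type arrays. The change was 1.36 ± 0.46 (limma adjusted p = 0.377), or 0.92 ± 0.22 without wild-type replicate 3.

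Nfkbiz, which encodes IkB zeta, had 3 probe sets that differed in how they read wild-type replicate 3 and HDAC7-deficient replicate 1. The brightest (1417483_PM_at) gave 8.78, 10.14 and 10.08 on the HDAC7-deficient arrays and 6.97, 7.68 and 9.58 on the wild-type arrays. As for Dusp1, wild-type replicate 3 overlapped the HDAC7-deficient arrays, and the change was 1.59 ± 0.73 (limma adjusted p = 0.377), or 2.34 ± 0.42 without that array. A second probe set (1448728_PM_a_at) gave 7.56, 9.37 and 9.39 on the HDAC7-deficient arrays and 6.05, 6.97 and 5.02 on the wild-type arrays. There wild-type replicate 3 was the lowest array, and the change was 2.76 ± 0.67 (adjusted p = 0.301 over probe sets). The dimmest (1457404_PM_at) gave 7.21, 7.15 and 6.52 on the HDAC7-deficient arrays and 4.92, 5.54 and 4.80 on the wild-type arrays. There HDAC7-deficient replicate 1 was the highest array, where in the other probe sets it was the lowest of its group. The groups did not overlap, with a change of 1.87 ± 0.30 and the lowest adjusted p of the 12 probe sets, 0.273.

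**Figure D2:**
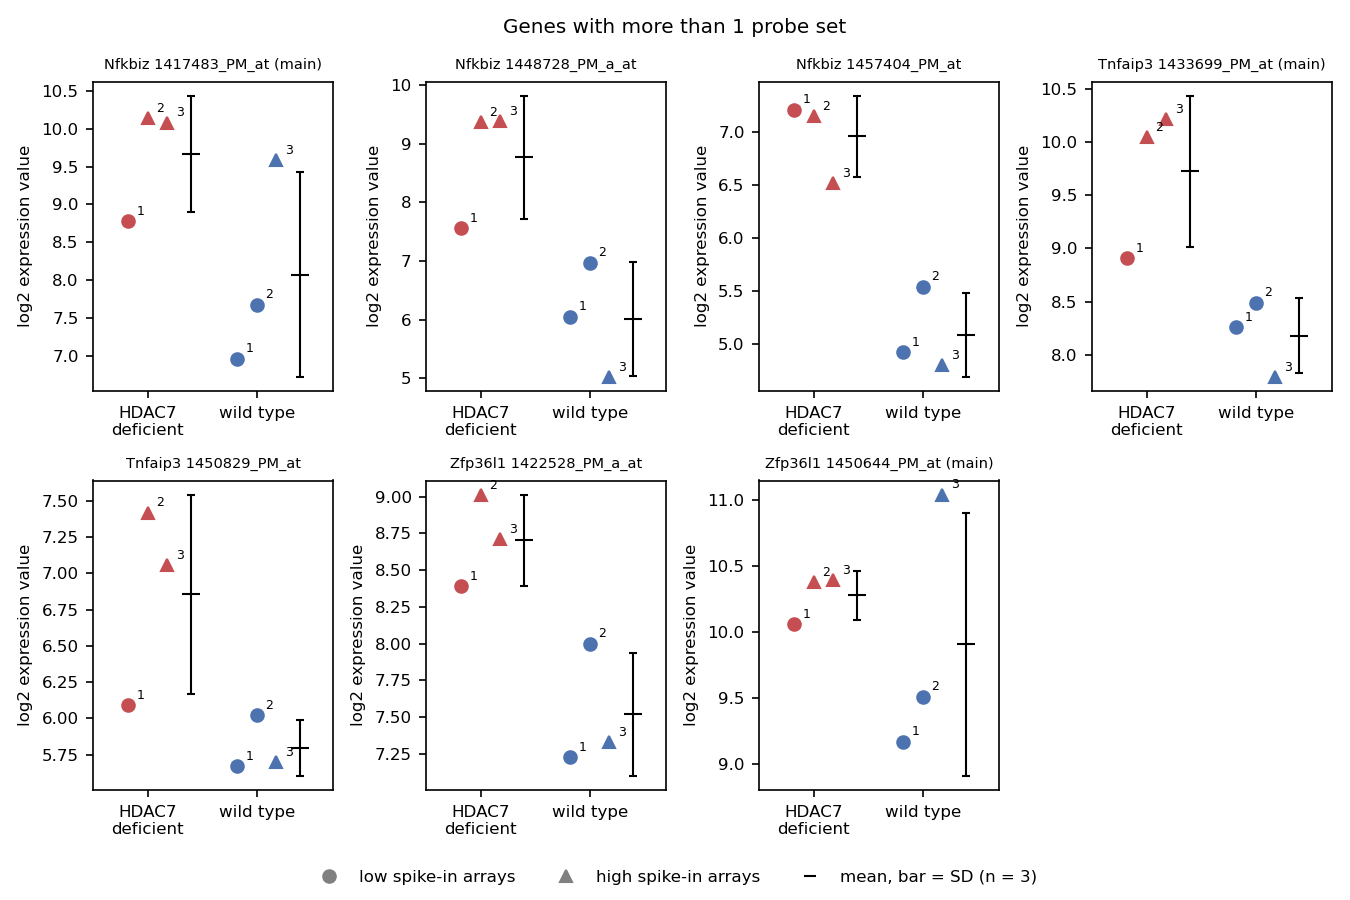
Log2 expression value (y axis) of each probe set of Nfkbiz, Tnfaip3 and Zfp36l1 on the HDAC7-deficient and wild-type arrays, with replicate numbers, circles and triangles for low and high spike-in arrays, and bars for the mean ± SD. Only the brightest probe sets of Nfkbiz and Zfp36l1 place wild-type replicate 3 within or above the HDAC7-deficient arrays, and in the other 5 panels the groups do not overlap.

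Over the 12 probe sets, all were higher in HDAC7-deficient cells on average, 9 without overlap between groups (11.5% of all probe sets higher) and 8 at an unadjusted p under 0.05 (5.97%). The probe sets of 1 gene are read from the same arrays and are not separate replicates. Whether they measure the same transcripts was not tested. Wild-type replicate 3, relative to the mean of wild-type replicates 1 and 2, was 2.88 higher for Dusp1, 2.25 higher for the brightest Nfkbiz probe set and 1.71 higher for the brightest Zfp36l1 probe set. For the other Nfkbiz probe sets the same difference was -1.50 and -0.43, and for the other Zfp36l1 probe set it was -0.28. It was -1.72 for Zfp36l2, -1.32 for Nfkbia, -0.91 for Dusp2, -0.58 for Tnfaip3 and -0.20 for Dusp6. In the 4274 genes with the highest mean, which hold 7 of the 8 genes and not Dusp6, this difference had a median of -1.36. The median change between the groups in those genes was 0.56, or 0.06 without wild-type replicate 3. The part of the 3′ signal excess of that array in these differences was not tested.

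Within the arrays of low spike-ins, HDAC7-deficient replicate 1 lay above both wild-type arrays for 8 of the 8 genes, where 34.5% of all genes did so. The changes there ran from 0.39 (Zfp36l2) to 1.49 (Dusp1), with a median of 0.83. Within the arrays of high spike-ins, HDAC7-deficient replicates 2 and 3 both lay above wild-type replicate 3 for 7 of the 8 genes, against 43.1% of all genes. The changes there ran from -0.66 (Zfp36l1, by its brightest probe set) to 2.43 (Nfkbia), with a median of 1.55. In the 4274 genes with the highest mean, which hold 7 of the 8 genes, the median change was 0.14 within the low spike-in arrays. Within the high ones it was 1.44, near that of the feedback genes. With the division as a block, 7 of the 8 were higher at an unadjusted p under 0.05 (15.7% of all genes), and the lowest limma adjusted p was 0.0947. When wild-type replicate 3 was also left out, all 8 were at that level (6.75% of all genes), with a median of 0.83 and adjusted p-values of 0.0955 to 0.341. That last comparison sets HDAC7-deficient replicate 1 by itself against the other wild-type arrays, and its p-values assume that this array varies as the other 4 do, which give the spread. A limma interaction term of genotype and division passed an adjusted p of 0.05 for Nfkbia, Tnfaip3, Zfp36l2 and the brightest Zfp36l1 probe set (27.3% of all genes passed). It rests on wild-type replicate 3 and HDAC7-deficient replicate 1 as single arrays, with the spread taken from the other 4, so it cannot be told apart from those arrays.

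**Figure D3:**
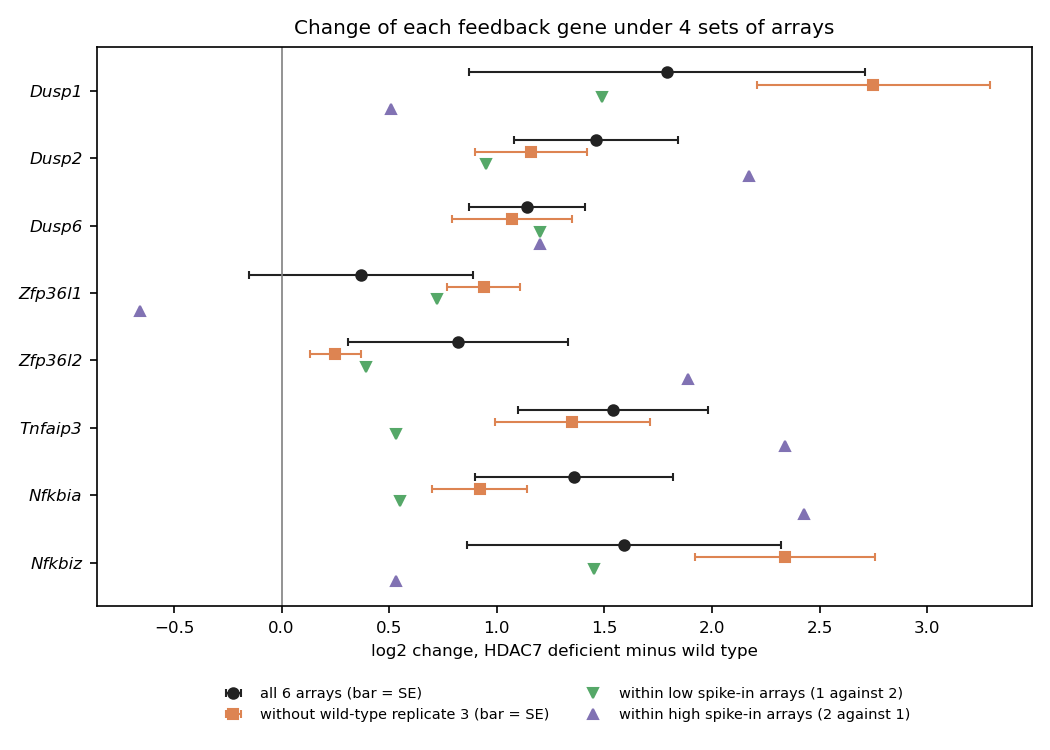
Log2 change, HDAC7 deficient minus wild type (x axis), of each feedback gene over all 6 arrays, without wild-type replicate 3 (bars are standard errors), and within the arrays of low or high spike-ins (no error). Dusp6 has nearly the same change throughout, and Zfp36l1 within the high spike-in arrays, at -0.66, is the point below 0.

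Other genes of the same pathways were read from lists. Their counts of higher genes stand beside 48.0% of all genes and 77.8% of the 8549 genes left without the dimmest 50%. Among other phosphatases and the Sprouty and SPRED inhibitors of the RAS pathway, 7 of 14 measured genes were higher in HDAC7-deficient cells, with a median change of 0.05. None passed, and 2 were lower at an unadjusted p under 0.05, against 9.14% of all genes. These were Spry4, an inhibitor of RAS and ERK signalling, at 5.30, 5.40 and 5.72 on the HDAC7-deficient arrays and 6.11, 6.05 and 6.61 on the wild-type arrays (change -0.78 ± 0.23), and the phosphatase gene Dusp14 with -0.69 ± 0.28. Nf1, the RAS inactivator neurofibromin, had 0.39 ± 0.17 and Spry2 had 0.69 ± 0.34. Among kinases of the MAP kinase pathways 12 of 13 were higher, against 48.0% of all genes and 77.8% of the 8549 brighter ones. Their median was 0.67, or 0.14 without wild-type replicate 3. Of these only Map3k8, a kinase that acts upstream of ERK, was higher at an unadjusted p under 0.05. It was 5.75, 6.92 and 6.55 on the HDAC7-deficient arrays and 4.80, 5.32 and 4.89 on the wild-type arrays (change 1.40 ± 0.32, limma adjusted p = 0.377). Map2k1, Braf and Map2k4 had 0.72 ± 0.40, 0.48 ± 0.27 and 0.67 ± 0.41.

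In the NF-kB list of subunits, kinases and other inhibitors 19 of 20 measured genes were higher. The shares were again 48.0% of all genes and 77.8% of the 8549 brighter ones. The median of this list was 0.64, or 0.35 without wild-type replicate 3. None passed, and 3 were higher at an unadjusted p under 0.05, against 3.52% of all genes. Nfkbid, a nuclear IkB protein related to IkB zeta, was 7.07, 7.98 and 7.90 on the HDAC7-deficient arrays and 5.81, 6.57 and 5.30 on the wild-type arrays, a change of 1.75 ± 0.41. Rel, the c-Rel subunit of NF-kB, was 7.18, 7.74 and 8.05 on the HDAC7-deficient arrays and 5.84, 6.83 and 5.49 on the wild-type arrays, a change of 1.60 ± 0.41. The groups did not overlap for either gene. The ubiquitin ligase gene Itch, a partner of A20, had 0.73 ± 0.21 and the subunit Relb had 0.62 ± 0.28. Among cytokine and survival targets of NF-kB or with AU-rich mRNAs, 14 of 18 were higher, beside the same shares of 48.0% and 77.8%. Their median was 0.65, or 0.27 without wild-type replicate 3. The chemokines Ccl3 and Ccl4 had 1.27 ± 0.30 and 1.22 ± 0.29, the early response gene Ier3 had 1.21 ± 0.32 and the apoptosis inhibitor Birc3 had 0.82 ± 0.35. These 4, the genes of smallest p in the list, were among 5 of the 18 that were higher without overlap, against 9.45% of all genes, and none passed (limma adjusted p = 0.377 each).

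Of 24 measured genes of deadenylation and mRNA decay, 21 were higher, against 48.0% of all genes and 77.8% of the 8549 brighter ones. Their median was 0.54, or 0.06 without wild-type replicate 3. Zc3h12a, the endonuclease Regnase-1 that cleaves inflammatory mRNAs, was 5.77, 6.62 and 6.66 on the HDAC7-deficient arrays and 5.11, 5.61 and 4.75 on the wild-type arrays, a change of 1.20 ± 0.33 (limma adjusted p = 0.377). It was the one gene of this list at an unadjusted p under 0.05. Btg2 and Btg1, antiproliferative factors that bind the CCR4-NOT deadenylase, had 1.36 ± 0.63 and 0.54 ± 0.26, and Tob2, of the same family, had 0.78 ± 0.45. Without wild-type replicate 3 the change of Btg2 was 0.62. The immediate early factors, which share their inducing signals with the feedback genes, had 14 of 16 higher, beside the same shares. Their median was 1.46. Those of smallest p were Jun with 2.76 ± 0.36, Fosb with 4.16 ± 0.68, Junb with 1.98 ± 0.39 and Egr1 with 3.25 ± 0.67. HDAC7-deficient replicate 1 was again the lowest of its group for these 4, as it was for Dusp1, Dusp2, Zfp36l1, Tnfaip3, Nfkbia and Nfkbiz by their brightest probe sets.

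**Figure D4:**
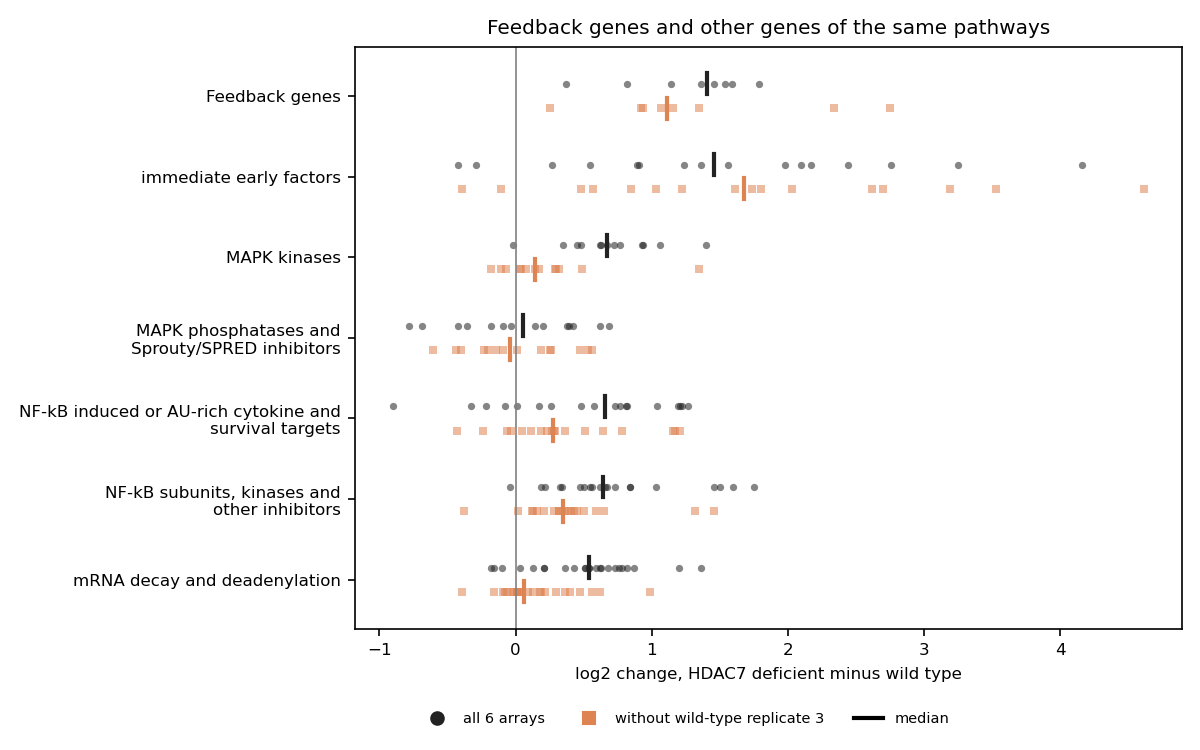
Log2 change, HDAC7 deficient minus wild type (x axis), of each gene in the feedback group and in 6 lists of related genes, over all 6 arrays (dots) and without wild-type replicate 3 (squares), with vertical bars for medians. The feedback genes have medians of 1.41 and 1.11, and the lists of MAPK kinases and mRNA decay fall to medians of 0.14 and 0.06 without that array.

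Markers of myeloid and dendritic cells, in which feedback genes are also expressed, were read beside these results. The shares to set beside the counts of higher markers are again 48.0% of all genes and 77.8% of the 8549 brighter ones. Macrophage and monocyte markers had 7 of 10 higher. Their mean levels were 7.06 to 7.60 on the HDAC7-deficient arrays and 6.98, 7.06 and 6.71 on wild-type replicates 1 to 3. Of their markers Itgam, an integrin subunit of myeloid cells, moved as the feedback genes did, at 6.95, 8.35 and 8.07 on the HDAC7-deficient arrays and 6.43, 6.54 and 5.87 on the wild-type arrays. Its change of 1.51 ± 0.42 was at an unadjusted p under 0.05 without overlap (limma adjusted p = 0.377). Cd68 had 1.31 ± 0.82 and Ccr2 0.77 ± 0.48, whereas Csf1r, the receptor of a macrophage growth factor, had 0.02 ± 0.24 and Adgre1 -0.26 ± 0.44. Without wild-type replicate 3 the changes of Cd68 and Ccr2 were 0.30 and 0.26, and those of Csf1r and Adgre1 were -0.04 and 0.22. Neutrophil markers had 7 of 9 higher. Their mean levels were 10.27 to 10.78 on the HDAC7-deficient arrays and 10.27, 10.21 and 9.36 on wild-type replicates 1 to 3. Among them the collagenase gene Mmp8 had 1.45 ± 0.41, without overlap and at an unadjusted p under 0.05. S100a8 and S100a9, the markers of this list that were not higher, had -0.06 ± 0.37 and -0.02 ± 0.34. Elane and Mpo had 0.89 ± 0.95 and 0.50 ± 0.55, but -0.30 and -0.14 without wild-type replicate 3, where 7 of 9 neutrophil markers were again higher. Markers of plasmacytoid dendritic cells had 5 of 5 higher. Their mean levels were 9.37 to 10.21 on the HDAC7-deficient arrays and 8.82, 9.39 and 7.19 on wild-type replicates 1 to 3. Among these Tlr7, a sensor of single-stranded RNA, had 1.49 ± 0.48, also without overlap and at that level. The median changes of the macrophage, neutrophil and plasmacytoid lists were 0.27, 0.53 and 1.55 over all arrays, where the feedback genes had 1.41. Without wild-type replicate 3 they were 0.24, 0.32 and 0.51, against 1.11. Within the high spike-in arrays they were 0.39, 1.85 and 3.83, against 1.55 for the feedback genes. Within the low ones, which hold a single HDAC7-deficient array, they were 0.04, -0.07 and 0.16, against 0.83. T and NK cell markers had 8 of 9 higher (median 0.55), pro-B markers 8 of 11 (0.26), erythroid markers 3 of 5 (0.07), stromal and endothelial markers 3 of 7 (-0.21) and mature B markers 1 of 5 (-0.19). The pro-B and mature B medians changed sign without wild-type replicate 3, where 43.2% of all genes were higher. There pro-B markers had 2 of 11 higher (-0.30) and mature B markers 4 of 5 (0.45). T and NK cell markers had 7 of 9 (0.30), erythroid markers 4 of 5 (0.19) and stromal and endothelial markers 3 of 7 (-0.12). The part of other cells in the values of the feedback genes was not tested.

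Dusp6 had the smallest unadjusted p of the 8 genes, and the genes most like it over the 6 arrays were sought among 8547 genes of above-median expression. The 5 highest Pearson correlations were those of Srsf11 (0.9905), Wasl (0.9864), Gpatch2 (0.9862), Hes1 (0.9839) and Clec7a (0.9812), and over the 5 arrays without wild-type replicate 3 they were 0.9874, 0.9862, 0.9815, 0.9934 and 0.9758. The points are 6 arrays that share the group labels and the spike-in division, so the correlations are descriptive. Hes1, a repressor induced by Notch signals, had a change of 0.96 ± 0.28 and Clec7a, the fungal receptor Dectin-1, of 1.35 ± 0.35. The splicing factor gene Srsf11, Gpatch2 and Wasl, an actin regulator, had smaller changes of 0.34 ± 0.28, 0.39 ± 0.26 and 0.13 ± 0.21. Limma adjusted p-values of these 5 genes ran from 0.377 to 0.676.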

How the data were processed

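The deposited table held log2 expression values, by probe set and array. How they were normalized is not given in the sources used here. Log2 units were inferred from their range. After 104 controls were set aside, 45037 probe sets remained, of which 28898 had 1 gene symbol in a platform annotation, 551 several and 15588 none. Symbols were updated by Entrez number for 28689 of them through a RefSeq table of GRCm38.p6. The group comparison used limma 3.58.1 and R 4.3.3 (intensity trend, two-sided, Benjamini-Hochberg over all genes, threshold 0.05, no filter), as HDAC7 deficient minus wild type. Changes are given ± SE. The fit was checked on simulated data. The division of arrays was taken from the mean of 18 spike-in probe sets, at the widest gap. The alternatives were each array left out, blocks, other scalings, filters, a flat variance model, array weights and means over probe sets. All 10 genes, up to 4 genes per list by smallest p, Hdac7, defining markers and the 5 genes most like the gene of smallest p are named. Ms4a1, Cd22 and the marker genes named beside their lists were chosen after their values were seen. The genes and lists were chosen with earlier results of these data known. The labels call the arrays biological triplicates, and their number limits the precision. Figures used matplotlib 3.10.9 in Python 3.11.15.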

Additional observations from a re-analysis of the deposited data

Results flagged for a closer look

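The interaction term of genotype and spike-in division passed for 4 feedback genes in a limma fit, adjusted over all genes. Wild type with high spike-ins is replicate 3 only and HDAC7 deficient with low spike-ins is replicate 1 only, so both are assumed to vary as the other 4 arrays, which give the spread. The difference (high minus low) was 1.88 ± 0.29 for Nfkbia (adjusted p = 0.000353), from changes of 2.43 and 0.55, and 1.81 ± 0.32 for Tnfaip3 (0.000987), from 2.34 and 0.53. It was 1.51 ± 0.19 for Zfp36l2 (4.89e-05), from 1.89 and 0.39, and -1.38 ± 0.22 for the brightest Zfp36l1 probe set (0.00037), from -0.66 and 0.72. The other Zfp36l1 probe set had the opposite sign, 0.76 ± 0.50 (adjusted p = 0.310 over probe sets), from 1.53 and 0.77. In 3 of these genes both HDAC7-deficient arrays of high spike-ins lay above the single wild-type array there. The same test passed for 27.3% of all genes. The high spike-in arrays include wild type only as replicate 3, and the low ones HDAC7 deficient only as replicate 1, so the division and these arrays cannot be told apart.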

How the results depend on the processing

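Gene-by-gene array weights were added after seeing the data because the default method of array weights did not converge. With them 7 of the 8 feedback genes passed in limma (lowest adjusted p = 0.00101, Zfp36l2 at 0.321), as did 6423 of all genes (37.6%). At an unadjusted p under 0.05 there were 7, all higher, against 19.8% of all genes, and the change of Dusp1 was 3.30. Under the other 15 alternatives no feedback gene passed (lowest limma adjusted p = 0.0817), and all 128 changes of single genes over the 16 alternatives were positive. The median change ran from 1.11 to 1.56 with 1 array left out and was 0.83 with the division block together with leaving out wild-type replicate 3. The count at an unadjusted p under 0.05, all higher, was 4 (3.52% of all genes), and 7 with the division block (15.7%). With 1 array left out it was 3 to 7, where the share of all genes ran from 0.988% to 10.6%. The 7, without wild-type replicate 3, stood beside 5.19%. The counts of 3, without HDAC7-deficient replicate 2 or 3, stood beside 0.988% and 1.96%. Groups did not overlap for 5 genes (9.45% of all genes were higher without overlap), or 5 to 8 with 1 array left out. The 8 were reached without wild-type replicate 3, where 11.8% of all genes did so. With quantile normalization 4 genes did not overlap, the median was 1.09 and the change of Zfp36l2 was 0.452. The share of all genes was not counted with quantile normalization or with another array left out, so those counts have no background. For Zfp36l1 the change was 0.002 without wild-type replicate 1 and 0.0319 with the division block, and without wild-type replicate 1 those of Dusp1 and Nfkbiz were 1.17 and 1.04. Over all genes 4 passed with the division block joined with leaving out wild-type replicate 3, 1 with the replicate block and 0 in the other 13 alternatives without array weights. Centring on array medians moved the median of all genes to 0.10 from -0.03, and that of the feedback genes to 1.55. The replicate block gave 6 genes at an unadjusted p under 0.05, all higher, against 4.41% of all genes. Same-numbered arrays had correlations of deviations of 0.0964, 0.208 and 0.476, and not every array correlated best with its own number, so the numbers were not taken as pairs. Overlap does not depend on blocks, filters or variance models and was not recounted for them. The small number of arrays and the quality of wild-type replicate 3 limit every value.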

Other observations

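Dusp5 and Zfp36, the pair of feedback genes without expression values here, have RefSeq promoter windows that differ from those of the measured genes in 1 respect. Both hold the CArG box, the letters bound by serum response factor, 58 to 49 bases before the start in Zfp36 and at both 82 to 73 and 72 to 63 bases before the start in Dusp5. The window of Dusp5 also holds the NF-kB motif, which overlaps its first CArG box. None of the measured genes with a window holds a CArG box, and the box was in 1.47% of all windows.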
